A study of Homo sapiens with 8 samples.

Results

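The genes described here encode the proteins of the cytosolic ribosome. They were chosen by symbol among the RefSeq protein-coding genes, as RPL or RPS followed by a digit, RPLP0 to RPLP2 and RPSA, with the RPS6K kinases left out. The rule gave 91 of 20033 protein-coding genes on chromosomes 1 to 22, X and Y. Of these, 31 encode the canonical proteins of the small (40S) subunit, 43 those of the large (60S) subunit and 3 those of the acidic stalk. A further 10 are paralogs with restricted or alternative use, and 3 are readthrough genes that join a ribosomal protein gene to its neighbour. The last, RPS19BP1, fits the symbol rule but encodes a protein that binds RPS19 and is not itself a ribosomal protein.

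The mark profiled was H3K27ac, the acetylated form of lysine 27 of histone H3 that is found at promoters and enhancers in use. Chromatin of MDA-MB-231 cells, a long-cultured line from a triple-negative breast cancer, was immunoprecipitated and sequenced. The study set ARID1A knockout cells against control cells. ARID1A belongs to the BAF form of the SWI/SNF nucleosome remodellers. The 8 libraries fell into 4 groups of 2, namely control input, control immunoprecipitate, ARID1A knockout input and ARID1A knockout immunoprecipitate, but 1 peak list per genotype was used here. Whether the knockout line was a clone or a pool, and whether the replicates were pooled for a list, was not given in the sources used here. The sample characteristics name an H3K27ac antibody, whereas the extraction protocol names one against H3K4me3, and the mark is called H3K27ac here after the titles and characteristics. An H3K27ac list cannot check the deletion itself. Peaks reached an end of ARID1A in both lists. Of marker genes for mesenchymal and basal breast cells, 8 of 8 had a listed peak near an end in both genotypes, against 3 of 6 luminal markers and 2 of 6 markers of other cell types, and the luminal marker ESR1 had one in the knockout list only. With 1 list per genotype there is no spread between replicates and no test of the genotype. Every difference below is therefore between these 2 lists.

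Ribosomal proteins and ribosomal RNA together form the subunits that decode messenger RNA and join amino acids. Their genes are scattered over the chromosomes and are transcribed strongly in dividing cells, since most of the proteins are needed in equal number. Most have promoters without a canonical TATA box, and their transcripts start within a run of pyrimidines, the 5′ terminal oligopyrimidine (TOP) motif, through which mTOR signalling controls their translation. H3K27ac at such genes lies over the promoter and the first part of the transcribed region.

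The start regions of 8 of these genes are shown as summed peak length over both ends differed at least 1.5 times between the lists. It was longer in control at 7 and longer in the knockout at RPL35A. At the start itself the RPL28 peaks were 5.85 kb in control and 4.61 kb in the knockout. Those at the RPL35A start were 4.44 kb and 4.14 kb, so at both genes most of the difference lay at the far end. Each sequence runs 5′ to 3′ from 45 bases before the annotated start through the first 15 transcribed bases, and capitals mark the pyrimidine run of at least 5 bases nearest to the start, if it comes within 10 bases of it.
RPL38: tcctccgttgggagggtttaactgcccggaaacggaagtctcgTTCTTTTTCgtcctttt
RPL22: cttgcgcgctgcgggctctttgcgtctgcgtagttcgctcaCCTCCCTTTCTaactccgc
RPS19: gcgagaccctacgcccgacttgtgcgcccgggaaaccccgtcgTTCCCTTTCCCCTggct
RPL29: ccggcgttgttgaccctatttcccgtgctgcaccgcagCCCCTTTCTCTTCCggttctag
RPL28: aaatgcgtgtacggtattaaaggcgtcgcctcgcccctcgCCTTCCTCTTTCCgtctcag
RPS10: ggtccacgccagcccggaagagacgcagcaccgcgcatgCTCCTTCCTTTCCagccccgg
RPL32: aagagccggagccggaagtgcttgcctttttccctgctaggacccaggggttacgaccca
RPL35A: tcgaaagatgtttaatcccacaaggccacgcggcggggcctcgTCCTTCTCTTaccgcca
On GRCh38.p14, which is hg38, these lie for RPL38 at chr17:74203633-74203692 (plus strand), RPL22 at chr1:6199581-6199640 (minus strand), RPS19 at chr19:41860210-41860269 (plus strand), RPL29 at chr3:51995881-51995940 (minus strand), RPL28 at chr19:55385887-55385946 (plus strand), RPS10 at chr6:34426055-34426114 (minus strand), RPL32 at chr3:12841568-12841627 (minus strand) and RPL35A at chr3:197950145-197950204 (plus strand). They are RefSeq sequences, and 72 of the 91 symbols matched an entry. The RPL32 window holds no such run within 10 bases of the RefSeq start, but the pyrimidine run cctttttccct lies just upstream of that limit. Among the 60 canonical genes with an entry beginning at the gene end, 56 (93.3%) had a run of at least 5 pyrimidines there. The median run was 11 bases and the longest 24 (RPL7A). That run reached the last of the 15 transcribed bases, so its count may be cut short. Runs of at least 5 bases are common, since 47.1% of 13819 protein-coding genes treated alike had one, with a median of 6 bases. A run of at least 10 bases was found at 42 of the 60 canonical genes (70.0%) and at 6.25% of all genes. Among 7 paralogs, 3 had a run of at least 5.

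Peaks lay within 1 kb of an end of 88 of the 91 genes in both lists, which for all protein-coding genes was 60.9%. No member had a peak in the control list only, which held for 1.84% of all genes, and none had a peak in the knockout list only, against 1.71%. All 77 canonical genes, stalk included, were among the 88. The 3 genes without a peak in either list were paralogs. RPL10L, a testis-expressed copy of RPL10 on chromosome 14, had its nearest peak 59.1 kb away in control and 58.9 kb away in the knockout. RPS4Y1 and RPS4Y2 are the Y-linked counterparts of RPS4X, and neither list held a peak on that chromosome.

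The peaks were longer in the control list at most of these genes. The quantity used is the summed length, in kb, of all listed peaks that reach within 1 kb of either gene end. Its median over the 88 genes was 4.92 kb in control and 3.34 kb in the knockout, whereas over all 12201 genes with a peak in both lists it was 2.75 kb and 2.51 kb. The summed length was longer in control at 75 of 88 members (85.2%), beside 59.4% of all genes. It was at least 1.5 times as long in control at 28 members (31.8%), beside 13.8% of all genes. It was at least 1.5 times as long in the knockout at 1 member, RPL35A, beside 5.79% of all genes. The median ratio of control to knockout length was 1.26 (quartiles 1.06 and 1.70) for the members and 1.05 (quartiles 0.923 and 1.26) for all genes.

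**Figure D1:**
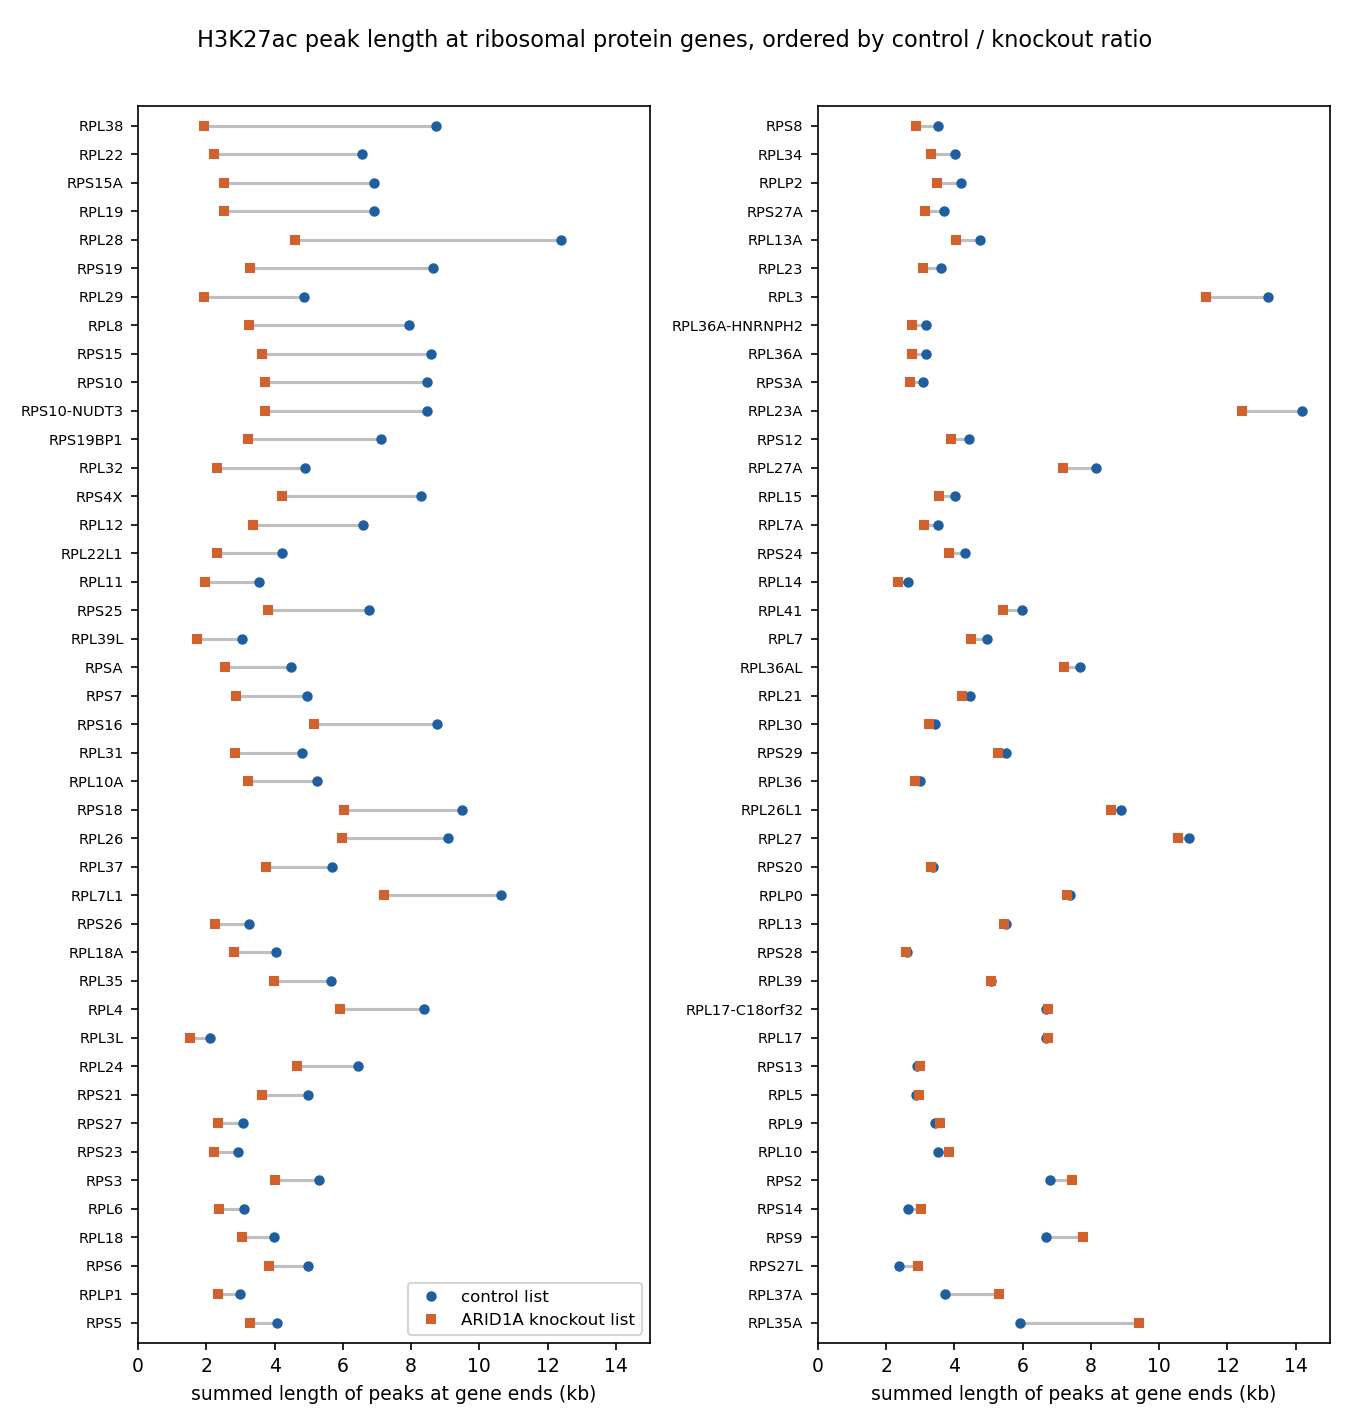
Summed length in kb (horizontal axis) of the peaks at the ends of each of 86 ribosomal protein genes with peaks in both lists, with circles for the control list and squares for the ARID1A knockout list, 1 value each. Genes run from the highest control to knockout ratio (top left, RPL38, 8.74 kb and 1.93 kb) to the lowest (bottom right, RPL35A, 5.93 kb and 9.41 kb), and the control circle lies to the right at 73 of these genes.

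An added comparison was restricted to the 6875 genes whose best peak lay in the upper 25% by pileup of both lists. There the median ratio was 1.06 over all genes and 1.23 over the 62 members among them. The length was longer in control at 56 of these 62 members, beside 61.9% of such genes, and at least 1.5 times as long at 21, beside 12.4%. Where the caller divided a stretch in the knockout, a fragment beyond the 1 kb window is not counted, so the length was also summed over all peaks of each merged region, again a choice made after the values were seen. On that measure the median ratio of the members was 1.23, and 23 of 88 were at least 1.5 times as long in control, beside 10.7% of all genes. All 23 were among the 28, and the 5 that fell below were RPL19, RPL8, RPS15, RPS16 and RPS4X. When only peak bases inside the 1 kb windows were counted, 11 members were at least 1.5 times as long in control, beside 4.84% of all genes.

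**Figure D2:**
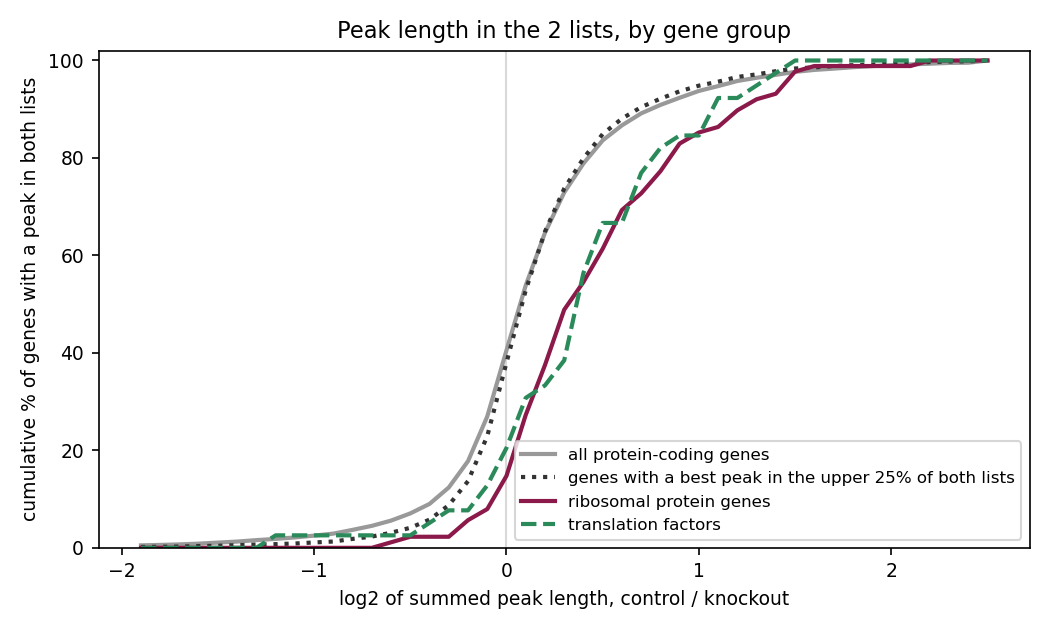
Cumulative percent of genes (vertical axis) by the log2 ratio of control to knockout summed peak length (horizontal axis, 0 marks equal length) for the ribosomal protein genes, the translation factors, all protein-coding genes and genes with strong peaks in both lists, each among genes with a peak in both. The curves of the ribosomal protein genes and the translation factors lie to the right of the other curves through the middle of the range, with medians that correspond to ratios of 1.26 and 1.29 against 1.05 for all genes.

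At most members with a known start, the control peak over the start reached further downstream than the knockout peak. The start and strand could be set for 72 members from the RefSeq promoter entries, and in 69 the start lay inside a peak in both lists. From the start, the peak ran a median 3.39 kb downstream in control and 2.10 kb in the knockout, and 1.05 kb and 0.995 kb upstream. The downstream edge lay further out in control at 59 of 69 genes, with a median difference of 539 bp, whereas the upstream edge did so at 32 of 69, with a median difference of -20 bp. Over 8992 genes measured in the same way the downstream edge was further out in control at 58.7%, by a median of 55.5 bp, and the upstream edge at 50.5%, by a median of 3 bp. The downstream edge was over 1 kb further out in control at 24 of 69 members, beside 10.7% of all genes, and in the knockout at none, beside 2.64%. Only the peak that holds the start was measured, so a division of the knockout peak also counts as a nearer edge. Among the 24, this applied to RPL3, RPL10A, RPL27A, RPS4X, RPS15, RPS16, RPS18 and RPS19. Each had another knockout peak further downstream under the same control peak. The upstream edge was over 1 kb further out in control at 2 members, RPS25 and RPL19, beside 3.98% of all genes, and in the knockout at 2, RPL37A and RPS10, beside 1.501%. At 2.5 kb into the gene, 65.2% of the members were under a control peak and 34.8% under a knockout peak, against 24.7% and 19.4% of all genes with a start and peaks in both lists. At 1 kb upstream the shares were 52.2% and 49.3%.

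**Figure D3:**
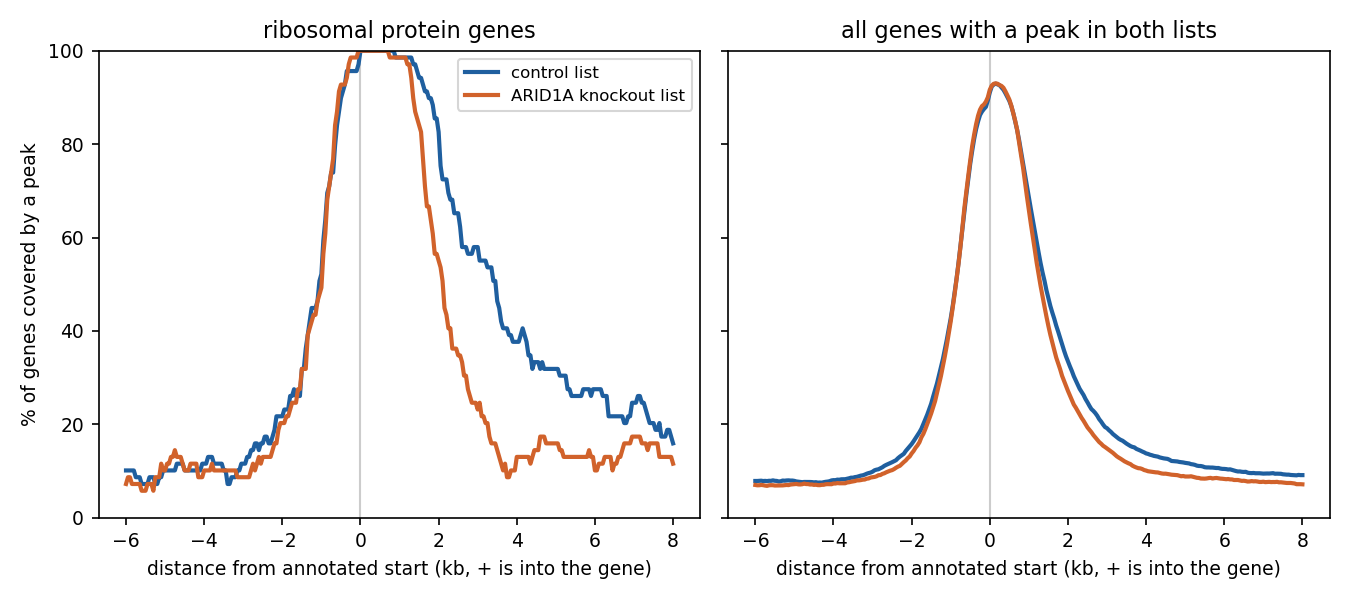
Percent of genes under a listed peak (vertical axis) by distance from the annotated start in kb (horizontal axis, positive into the gene), for 69 ribosomal protein genes (left) and 10036 protein-coding genes with peaks in both lists (right). Left, the control and knockout lines run together upstream and part from about 1.5 kb downstream, reaching 65.2% and 34.8% at 2.5 kb, while on the right they are 24.7% and 19.4% there.

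Among the small subunit genes, 27 of 31 had the longer summed length in control and 11 were at least 1.5 times as long, with a median ratio of 1.32. None was at least 1.5 times as long in the knockout. RPS15A, at chr16:18781295-18790334, had a peak of 6.90 kb in control and of 2.52 kb in the knockout, a ratio of 2.74. RPS19, the gene most often mutated in Diamond-Blackfan anaemia, lies at chr19:41860255-41872925. Its control peak was 8.63 kb long and reached 7.68 kb into the gene, while its knockout peak was 3.27 kb long and reached 2.31 kb (ratio 2.64, or 2.40 over the merged region). Upstream of the RPS19 start, both ended within 0.96 kb. RPS10, at chr6:34417454-34426069, had 8.46 kb in control and 3.72 kb in the knockout, and the downstream edge moved from 7.70 kb to 1.63 kb. At RPS10 the knockout peak also reached further upstream, 2.10 kb against 0.757 kb. RPS15, a protein at the subunit's head, had 8.58 kb and 3.62 kb, but a second knockout peak lay under the same control peak beyond the window, and over the merged region the ratio fell from 2.37 to 1.30.

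RPS25, RPSA and RPS7 had ratios between 1.73 and 1.79 with an undivided peak in each list. RPSA, first described as the laminin receptor precursor, had 4.47 kb in control and 2.55 kb in the knockout. RPS18, RPS16 and RPS4X had ratios of 1.57, 1.70 and 1.97, and each of their control peaks lay over more than 1 knockout peak. Over the merged regions RPS16 came to 1.496, just under the threshold, and RPS4X to 1.40. RPS6, the protein phosphorylated by the S6 kinases, had 4.99 kb and 3.84 kb, and RPS3, which lines the mRNA entry of the subunit, had 5.29 kb and 4.01 kb. RPS27A, made as a fusion to ubiquitin, had 3.70 kb and 3.15 kb. The 4 small subunit genes with the longer sum in the knockout were RPS9, RPS14, RPS2 and RPS13, with ratios of 0.863, 0.867, 0.913 and 0.967. RPS14 is the gene tied to anaemia in the 5q- syndrome. The shortest control sum among the small subunit genes was that of RPS28, 2.61 kb, which was 2.59 kb in the knockout.

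Among the large subunit genes, with the stalk, 39 of 46 had the longer summed length in control, 13 were at least 1.5 times as long, and the median ratio was 1.17. RPL38, a small protein known for its part in the translation of Hox messenger RNAs in the mouse, had the highest ratio of all 88 members. Its gene, at chr17:74203678-74210655, had control peaks at both ends that summed to 8.74 kb and 1 knockout peak of 1.93 kb, a ratio of 4.52. A knockout peak further out lay under the second control peak, and over the merged regions the ratio was 2.99. From the RPL38 start the peak reached 4.56 kb downstream in control and 1.87 kb in the knockout, while the upstream edge stood within 0.08 kb in both.

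RPL22, at chr1:6185020-6199595, had a control peak of 6.55 kb and a knockout peak of 2.23 kb, a ratio of 2.93. The upstream edges lay 0.961 kb and 1.03 kb from the RPL22 start and the downstream edges 5.59 kb and 1.20 kb. RPL29, at chr3:51993522-51995895, had 4.87 kb and 1.92 kb, a ratio of 2.54. Its control peak ran 4.37 kb from the start, past the far end of the gene, and its knockout peak 1.36 kb. RPL32 had 4.89 kb and 2.31 kb (2.12), and RPL12, a protein of the stalk base, had 6.61 kb and 3.37 kb (1.96). RPL31, RPL10A, RPL26 and RPL37 followed with ratios of 1.70, 1.62, 1.52 and 1.51. At 3 genes with a high ratio the merged region gave a much lower one. It fell from 2.73 to 1.20 at RPL19, from 2.69 to 1.54 at RPL28 and from 2.44 to 1.36 at RPL8, a protein close to the peptidyl transferase centre.

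RPL5 and RPL11 form the 5S ribonucleoprotein, which also binds MDM2 when ribosome assembly fails. The pair differed from each other. RPL11 had 3.53 kb in control and 1.96 kb in the knockout, a ratio of 1.80, part of it from a weak control peak past its far end. RPL5 had 2.87 kb and 2.97 kb, a ratio of 0.966. The stalk proteins recruit the translation factors. RPLP0 had 7.38 kb and 7.29 kb, RPLP1 had 2.98 kb and 2.34 kb, and RPLP2 had 4.18 kb and 3.49 kb, so that none of the 3 reached a ratio of 1.5.

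The longest sums were at RPL23A, a protein at the exit of the nascent chain tunnel. They came to 14.2 kb in control and 12.4 kb in the knockout. RPL3 followed with 13.2 kb and 11.4 kb. RPL28 came next in control with 12.4 kb and had 4.61 kb in the knockout. Its control sum joined a start peak of 5.85 kb and a far-end peak of 6.56 kb that also held an end of UBE2S. RPL27 had 10.9 kb and 10.5 kb, with edges that differed by less than 0.5 kb on either side. After it came RPL7L1 in control with 10.6 kb, and RPL35A and RPL26L1 in the knockout with 9.41 kb and 8.57 kb. The shortest sums in control were at RPL3L (2.11 kb), RPS27L (2.38 kb), RPS28, RPS14 and RPL14 (2.61 to 2.63 kb). In the knockout they were at RPL3L (1.52 kb), RPL39L (1.73 kb), RPL29, RPL38 and RPL11 (1.92 to 1.96 kb). In both lists the RPL3L peak lay almost wholly outside that gene.

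Of the 10 paralogs, 7 had peaks in both lists, with a median ratio of 1.39, and 2 of the 7 were at least 1.5 times as long in control. RPL22L1, which can stand in for RPL22, had 4.23 kb and 2.33 kb (1.82), and RPL39L, a copy of RPL39 best known from testis, had 3.04 kb and 1.73 kb (1.76). RPL39 itself had 5.08 kb in both lists. RPL3L, the copy of RPL3 used in muscle, had 2.11 kb and 1.52 kb, but each was a peak that also held an end of MSRB1. These peaks covered 0.14% of the RPL3L gene in control and 0% in the knockout. RPS27L, a p53 target, went the other way with 2.38 kb and 2.93 kb. RPL7L1, RPL26L1 and RPL36AL had ratios of 1.48, 1.04 and 1.07. The 3 readthrough genes share their peaks with RPS10, RPL17 and RPL36A and so add no separate value. RPS19BP1 had 7.12 kb and 3.21 kb, a ratio of 2.22.

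RPL35A, mutated in some families with Diamond-Blackfan anaemia, was the member with the lowest ratio, 0.63. Around its start, at chr3:197950190-197956610, the peaks were alike, reaching 0.95 kb upstream and 3.49 kb downstream in control and 0.886 kb and 3.25 kb in the knockout. The difference lay at its far end, where a knockout peak of 5.27 kb faced control peaks of 1.49 kb and 1.63 kb, of which the second was outside the window. Over the merged regions the ratio was 0.803. At RPL37A (0.703) a knockout peak of 5.31 kb reached 3.48 kb upstream and lay over 2 control peaks of 0.66 kb and 2.91 kb. Just inside the 1.5 threshold in control were RPL37 (1.51) and RPL26 (1.52), and RPL7L1 (1.48) lay outside it.

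Division of a peak ran mostly in 1 direction. At 11 members a control peak lay over at least 2 knockout peaks, beside 5.38% of all genes, and at 2 members, RPL35A and RPL37A, a knockout peak lay over at least 2 control peaks, beside 1.85%. The 11 were RPL3, RPL8, RPL10A, RPL19, RPL23A, RPL27A, RPS4X, RPS15, RPS16, RPS18 and RPS19. They held 13 gaps of 0.913 to 2.33 kb (median 1.24 kb) in the knockout list that the control peak covered. Of the gaps, 10 were wholly downstream of the start, 1 (RPL19) was wholly upstream and 2, at RPL23A and RPL8, had no strand. Gaps touched the gene itself at 9 of the 11. Of the 28 members at least 1.5 times as long in control, 8 had such a division and 20 did not.

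RPL27A had a control peak of 8.16 kb that covered the gene, while in the knockout it was divided into peaks of 3.85 kb and 3.32 kb with a gap from 2.74 to 3.98 kb after the start. At RPL3 a 13.2 kb control peak faced knockout peaks of 6.35 kb and 5.02 kb, with the gap from 4.72 to 6.71 kb inside the gene. RPL23A had 14.2 kb against 6.77 kb and 5.66 kb. At RPS18 a control peak of 9.49 kb faced knockout peaks of 4.64 kb and 1.39 kb. More peaks were counted at the ends in control at 9 members, beside 3.72% of all genes, and in the knockout at 8, beside 2.58%. In control 72 members had 1 peak and 16 had 2, and in the knockout 73 had 1 and 15 had 2. With peaks of −log10 q of at least 5 alone, 2 members had more peaks in control and 6 in the knockout.

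**Figure D4:**
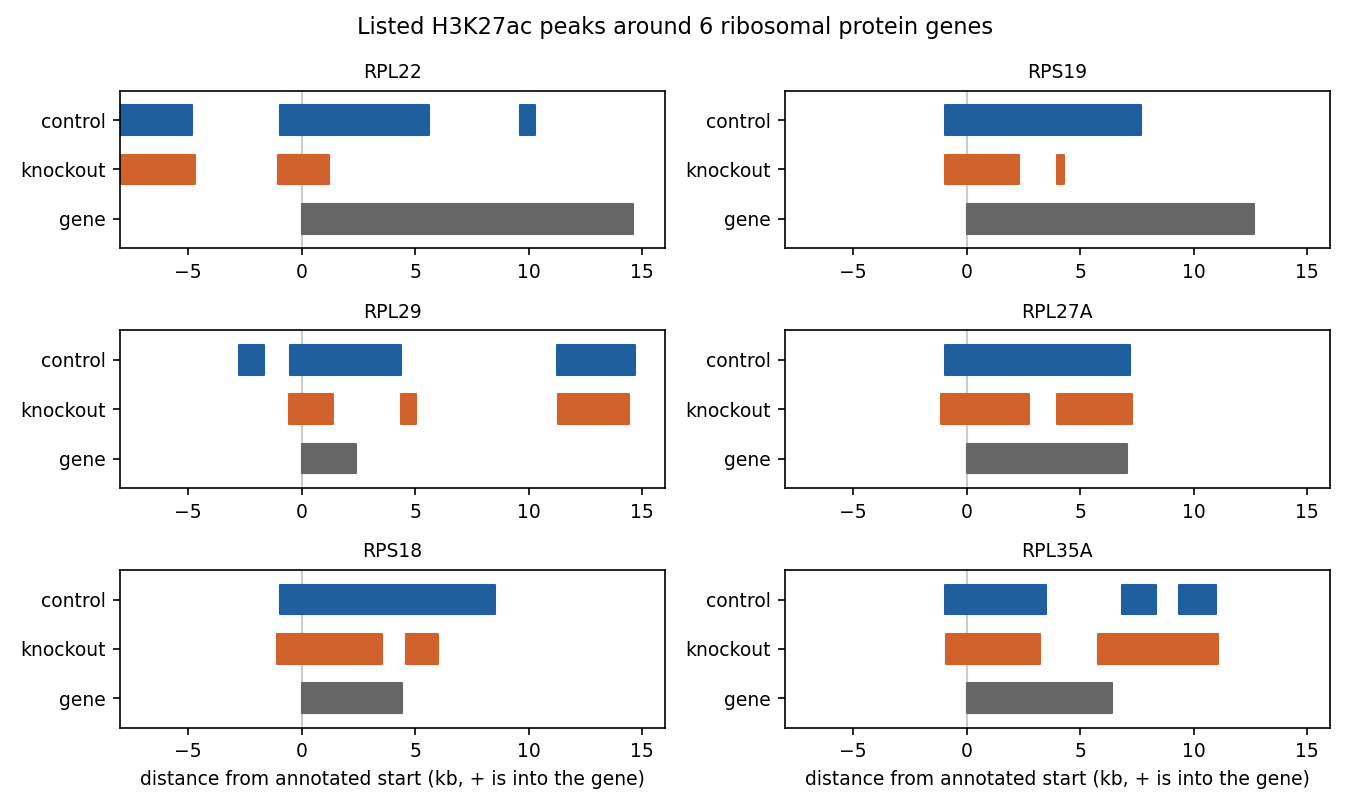
Listed peaks of the control and the ARID1A knockout list (bars) and the gene (grey) by distance from the annotated start in kb (horizontal axis, positive into the gene) for 6 ribosomal protein genes. At RPL22, RPS19 and RPL29 the knockout bar at the start ends sooner downstream (1.20, 2.31 and 1.36 kb against 5.59, 7.68 and 4.37 kb), at RPL27A and RPS18 it is divided, and at RPL35A the far bar is longer in the knockout.

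Taken end by end, 114 of the 182 gene ends of the members had a peak within 1 kb in both lists, 19 in the control list only, 1 in the knockout list only and 48 in neither. Over all genes, 2.24% of ends had a peak in the control list only and 1.52% in the knockout list only. Of the 19 control-only ends, 13 were reached by a peak that elsewhere overlapped a knockout peak. The 6 others were weak peaks at the far ends of RPL11, RPL13A, RPL18, RPL24, RPL37A and RPS6, with pileups of 7.15 to 14.6 and the nearest knockout peak 1.63 to 4.26 kb away. The knockout-only end was the far end of RPL13, with a peak of 612 bp and a pileup of 10.8. No start with a known strand had a peak in 1 list only.

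Pileup, the authors' fragment coverage of a peak, is ranked here only within its own list. The 88 members took 101 distinct control peaks, with a median length of 4.23 kb and a median pileup of 53.4, in a list whose medians were 1.51 kb and 22.7. They took 100 distinct knockout peaks, with a median length of 3.25 kb and a median pileup of 85.7, in a list whose medians were 1.53 kb and 32.0. In all, the member peaks covered 472 kb in control and 350 kb in the knockout. By the highest pileup at each gene, the members' median percentile was 83.8 in control and 84.2 in the knockout, close to the 80.5 and 83.1 of all genes with peaks in both. By the longest peak it was 90.2 in control and 83.6 in the knockout, against 74.5 and 72.3 for all genes. Thus these genes ranked above other genes with peaks in length more than in height, in both lists. Whether library depth or the caller's background moved the lengths was not tested, and the depth of the libraries is unknown.

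The highest pileups in control were at RPL3 (109), RPL7A (103), RPL6 (103), RPS21 (99.1) and RPS27A (98.7). In the knockout they were at RPL6 (209), RPL23A (187), RPL27A (171), RPS29 (155) and RPL7A (152). RPL3, first in control, stood at percentile 79.7 of the knockout list with 76.1. The lowest in control were at RPL36A (19.4), RPL39 (24.5), RPL17 (24.6), RPL3L (25.7) and RPL34 (28.4), and in the knockout at RPL3L (27.5), RPL36A (30.2), RPL17 (34.6), RPL39 (44.5) and RPL34 (48.2). The RPL3L values belong to peaks beside that gene that also held an end of MSRB1. Low pileup did not mean a short peak, since RPL17 and RPL39 summed to 6.68 kb and 5.08 kb in control.

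**Figure D5:**
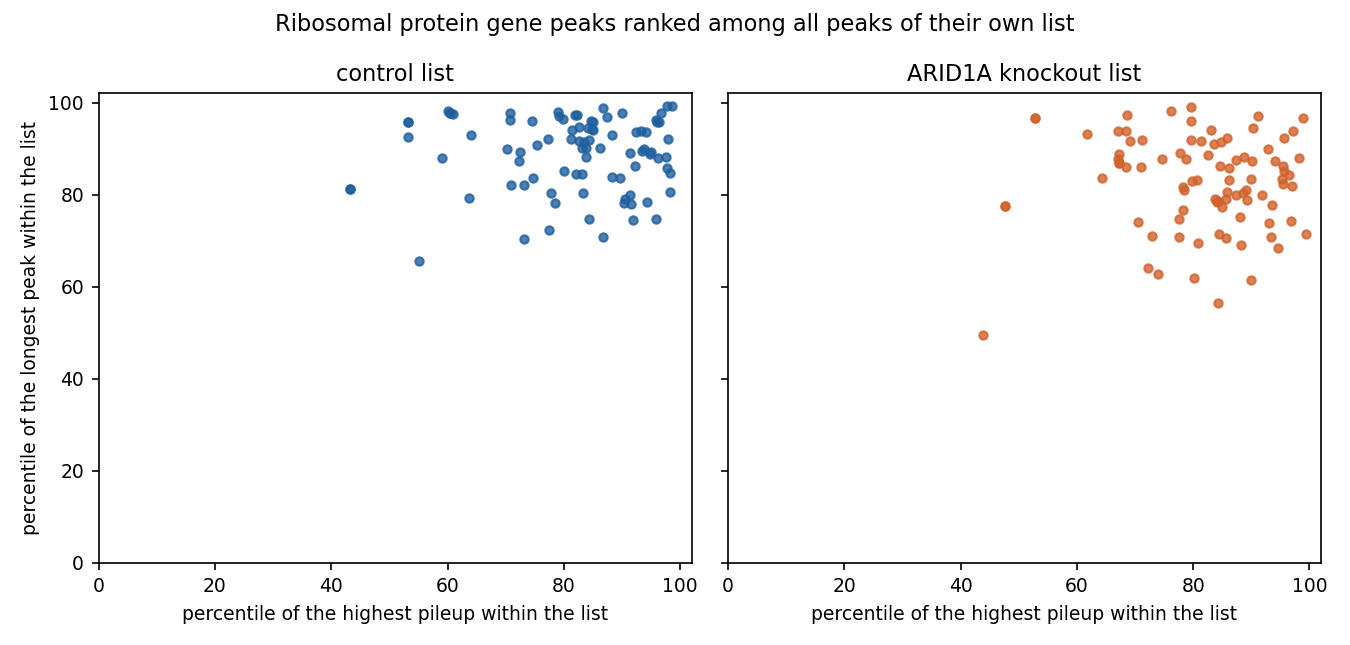
Percentile of the longest peak (vertical axis) against percentile of the highest pileup (horizontal axis), both among all peaks of the same list, for the 88 ribosomal protein genes in the control list (left) and the ARID1A knockout list (right). Medians are 90.2 and 83.8 in control and 83.6 and 84.2 in the knockout, so the cloud sits lower in length but not in pileup on the right.

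The genes are short, with a median of 5.09 kb among the 88 members with peaks in both lists against 29.0 kb for all 12201 such genes. Peaks covered a gene from end to end at 21 members in control, beside 3.06% of all genes, and at 8 in the knockout, beside 2.1%. The median share of the gene under peaks was 61.6% in control and 46.4% in the knockout, against 8.01% and 7.41% for all genes. Some peaks also held the end of a neighbouring gene. The control peaks of 42 members held an end of another coding gene, and their median ratio was 1.19, with 12 at least 1.5 times as long in control. The control peaks of the other 46 members held none, and their median ratio was 1.29, with 16 at least 1.5 times as long. Of the 42, RPS10 and its readthrough gene RPS10-NUDT3 shared 1 control peak that held only each other's end. Each had a ratio of 2.27, so both are among the 12. Among the 77 canonical genes, 29 host small nucleolar RNA genes in the annotation, 60 in all. Their median ratio was 1.15 with 6 at least 1.5 times as long in control, and the 48 without had 1.32 with 18.

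Promoter letters were searched in the 300 bases from 250 before to 50 after the RefSeq start, on both strands unless stated, for 72 members and 15842 genes. The GC-box core GGGCGG was found in 41 members (56.9%) and in 64.3% of all promoters. The ETS core CCGGAAG was found in 24 members (33.3%) and in 16.5% of all, and the YY1 core ATGGCGGC in 5 (6.94%) and in 5.23%. The TATA box letters TATAAA were found in 8 (11.1%) and in 12.4%. CTTTC or CTTTT on the sense strand within 10 bases of the start, as in the RPL38, RPL22, RPS19, RPL29, RPL28 and RPS10 sequences above but not in those of RPL32 and RPL35A, was found in 42 members (58.3%) and in 7.45% of all. These motifs can overlap, and a match is no evidence of a bound factor. Of the 62 canonical genes with an entry, the 40 with the pyrimidine letters had a median length ratio of 1.31, with 13 at least 1.5 times as long in control, and the 22 without had 1.15, with 7.

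Other genes of the translation apparatus were described from lists of 40 translation factors, 40 ribosome biogenesis genes and 77 mitochondrial ribosomal proteins. No gene of these lists had a peak in 1 list only. Of the translation factors, 39 had peaks in both, the median ratio was 1.29, and 13 were at least 1.5 times as long in control and 1 in the knockout. The list also took in EIF2AK2 (2.05), EIF4EBP1 (2.03) and TPT1 (0.422), which are not translation factors in the strict sense. TPT1 was the 1 longer in the knockout. EIF1AX, a factor of start codon scanning, had 5.39 kb in control and 1.99 kb in the knockout, EIF4H, a helper of the eIF4A helicase, had 11.6 kb and 5.07 kb, and EIF4A2 had 8.65 kb and 4.08 kb. EEF1A1, which brings aminoacyl-tRNA to the ribosome, had 10.1 kb in both. Of the biogenesis genes, 39 had peaks in both, with a median ratio of 1.19. At least 1.5 times as long in control were 9, and in the knockout 2. Among the 9 was FBL, the RNA methyltransferase of box C/D particles, with 7.07 kb and 3.07 kb. Of the mitochondrial ribosomal protein genes, 75 had peaks in both, with a median ratio of 1.10. At least 1.5 times as long in control were 10 (13.3%), and in the knockout 2. The difference between these medians and that of the cytosolic genes was not tested.

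Of genes outside the symbol rule that encode parts of the ribosome, FAU, the source of the small subunit protein eS30, had 3.84 kb in control and 2.89 kb in the knockout. RACK1, a signalling scaffold on the small subunit, had 12.3 kb and 10.1 kb.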

How the data were processed

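The submitters' processing notes name Bowtie2 2.3.5.1, MACS2 2.2.6 and the build hg38. Each list was called on immunoprecipitate against input of the same genotype, as its name states. Per the file headers, the authors listed each peak's position, length, pileup (a coverage signal), fold enrichment (a ratio) and −log10 q-value. How replicates were pooled, and the depth, was not given in the sources used here, and peak names begin with A-1 or B-2 without explanation.

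Gene ends came from RefSeq on GRCh38.p14 and were extended by 1 kb, and a peak overlapping such a window by at least 1 bp was assigned to the gene. Exons and introns were not used here. Lengths, overlaps and motif matches came from Python 3.11.15 (numpy 2.4.6, pandas 2.3.3), and figures from matplotlib 3.10.9. Overlap code was tested on simulated data, with 0 wrong calls. Members and gene lists were chosen with earlier results of these data known. Genes were named when in 1 list or neither, past 1.5 times in length, divided, among the 5 longest, shortest, highest or lowest in pileup, or of a named role. A few others are named as examples of their group, chosen after their values were seen. Some genes are not reported by name here. Alternatives changed the window, the q threshold, the ends, the members, the overlap and the joining of gaps. Merged regions, shared peaks counted once, a fold of 2 and the genes with strong peaks were added after seeing the data.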

Additional observations from a re-analysis of the deposited data

How the results depend on the processing

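Of 81 recomputed values, 59 were counts within 1.5 times of the reported count or an unchanged median. The other 22 moved, and for the median any change was taken as a move, since there is no replicate spread. Some of the 59 could not move. Joining gaps of at most 500 bp could not undo a division, as the shortest gap was 0.913 kb. A count of 0 could not rise when only the canonical genes were kept. The median length ratio, 1.26 as reported, was 1.23 over merged regions, 1.27 with shared peaks counted once, 1.21 with peaks of −log10 q of at least 5, 1.20 at annotated starts only, 1.24 over canonical genes, 1.27 and 1.25 with windows of 2 kb and 500 bp, and 1.05 over bases inside the windows, where all genes gave 1. The 28 members at least 1.5 times as long in control became 13 at a fold of 2 (6.25% of all genes) and 11 inside the windows. The 1 such member in the knockout became 0 over merged regions, at a fold of 2 and inside the windows, 3 at the stricter q and 2 at 2 kb. Members with more peaks in control went from 9 to 2 at the stricter q and 0 at starts, and in the knockout from 8 to 6 at the stricter q, 0 at starts and 5 at 500 bp. Members where a knockout peak lay over divided control peaks went from 2 to 1 at the stricter q and at starts. Those without a peak went from 3 to 0 among canonical genes. The direction towards control in the median ratio remained under every setting run. Apart from fewer genes or bases counted, the cause was not tested.

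No paired analysis was possible because the labels number the replicates but each genotype has 1 peak list. Nor was any replicate left out, for the same reason. Unknown depth limits the comparison of peak edges between the lists.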

Other observations

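The annotation holds 1989 ribosomal protein pseudogenes, mostly processed copies of the spliced transcripts scattered over the genome. A peak overlapped 40 of them in both lists, 20 in the control list only (1.01%) and 18 in the knockout list only (0.905%). Of all 16845 pseudogenes, 0.837% and 0.944% had a peak in the control and in the knockout list only. In all, 3.02% of the ribosomal protein pseudogenes had a control peak and 2.92% a knockout peak, against 4.55% and 4.65% of all pseudogenes. Of the 78 with a peak, 8 lay within 1 kb of the end of a coding gene. Among those with a peak in 1 list only, the control peak over RPL21P125 on chromosome 17 had a pileup of 112 and a length of 4.22 kb, and that over RPL29P34 on chromosome 3 had 82.5 and 2.77 kb. The knockout peaks over RPL7AP18 on chromosome 1 and RPL13AP20 on chromosome 12 had pileups of 98.3 and 89.9 and lengths of 5.90 kb and 6.56 kb. Reads from such copies and from their parent genes can be hard to tell apart, and how reads mapping to several places were handled was not given in the sources used here.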
